A study of Danio rerio with 18 samples.

Results

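The synaptic vesicle and SNARE genes described here are those of the machinery that stores transmitter in vesicles and fuses these with the presynaptic membrane. They were chosen by name alone, as every gene whose name starts with snap25, vamp, cplx, syp, sv2 or rab3, or with stx or syt and a digit. The synapsins syn1, syn2a and syn2b were added, and the stxbp genes were left out. This gave 97 of the 25281 genes in the tables. By name they comprised 2 SNAP-25 genes, 22 syntaxins, 6 vesicle SNAREs of the VAMP family, 8 complexins, 23 synaptotagmins, 3 synapsins, 2 synaptophysins, 3 synaptophysin-like genes, 5 SV2 genes, 6 Rab3 GTPases and 4 regulators of Rab3. The prefix rab3 also brought in 13 Rab genes with names from rab30 to rab39bb, which are not Rab3 genes and act mostly elsewhere in membrane traffic. Of the 97 genes, 86 had enough counts to be tested and 11 did not. Of these 11, syt1b and stx1a had no count in any of the 18 libraries, which allows a level of up to 0.106 to 0.194 CPM (counts scaled to library size; 3 counts of each library's total, counting error only).

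At a synapse, a VAMP protein on the vesicle coils together with a syntaxin and SNAP-25 on the cell membrane, and this SNARE bundle pulls the membranes into fusion. Synaptotagmins sense the calcium that enters with an action potential, complexins hold the bundle ready and assist its release, Rab3 GTPases help bring vesicles to the membrane, and synapsins tie vesicles into a reserve. In the mammalian retina, the ribbon synapses of photoreceptors and bipolar cells use syntaxin 3 and complexins 3 and 4 and lack synapsins, while conventional synapses use complexins 1 and 2 and other syntaxins. Ganglion cells, whose axons form the optic nerve, release glutamate from conventional synapses in the brain.

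All fish were adult zebrafish of 3 to 5 months carrying isl2b:GFP, a green fluorescent reporter driven by the promoter of a ganglion cell gene. In the injured groups (ONT+) the optic nerve was transected and the eyes were taken at 6, 12 or 24 hours post injury (hpi); the control groups (ONT-) were the uninjured eyes of the other side at the same times. Each library was made from 1000 sorted fluorescent cells, with 3 libraries in each of the 6 groups. The labels name 5 replicates with surgery per time point but do not say whether libraries of a group came from separate fish, so p-values measure the spread between these libraries, which may be technical.

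Total counts were 15490375 to 28329194 per library. The ganglion cell marker isl2b ranged from 12.2 to 298 CPM over the 18 libraries, and 23 ganglion cell markers took 0.157% ± 0.0526 of counts in injured and 0.284% ± 0.0380 in control libraries at 24 hpi (SD, n = 3 each). None of these markers was at 0 in every library, and 5 were at 0 in at least 1. Transcripts of 39 rod and cone markers took 14.1 to 27.0% of counts in single libraries, and rho, the rod opsin, alone reached 72535 to 209960 CPM, so the libraries held much photoreceptor RNA beside that of the labelled cell type. RNA of further retinal cells was present too. Bipolar cell markers took 0.668 to 1.27% and Mueller glia markers 0.199 to 0.438% of counts in single libraries, beside 0.0833 to 0.424% for the ganglion cell markers. At 6 hpi all 39 rod and cone markers had positive log2 fold changes, 21 of them at an unadjusted p under 0.05. The mean log2 CPM of the tested markers of a cell type in a library is called its score. The lists hold none of the 97 genes. The ganglion cell list named gap43, stmn2a, stmn2b and neurofilament genes beside isl2b, rbpms2b and pou4f genes. Whether injury itself changes the level of such markers within a cell was not tested. The microglial gene mpeg1.1 was at 0 in 15 of 18 libraries, but 21 macrophage and microglia markers together took 0.00289 to 0.0239% of counts in single libraries. Their mean shares were 0.00649% in injured and 0.00374% in control libraries at 6 hpi. The 12 hpi means were 0.0114% (injured) and 0.00479% (control). That injured mean rested on replicate 2 with 0.0239%, beside 0.00506% in replicate 1 and 0.00516% in replicate 3. The 24 hpi means were 0.00419% (injured) and 0.00763% (control). That control mean rested on replicate 1 with 0.0158%, beside 0.00361% in replicate 2 and 0.00348% in replicate 3. In such bulk samples fewer cells of a type and less RNA per cell cannot be told apart.

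Levels per transcript length are given as TPM, recomputed from the counts by scaling to exon length and library size. In the mean of 18 libraries 12 of the 97 genes reached at least 100 TPM, 41 reached at least 10, and 25 stayed under 1. The highest was snap25b, which encodes a SNAP-25 protein, at 2612 TPM (range 1913 to 3599), above snap25a at 354 TPM (76.7 to 643). The calcium sensor gene syt5a followed at 974 TPM and its paralog syt5b had 213. Of the vesicle SNAREs, vamp2 and vamp1 stood close together at 607 and 502 TPM, and their ranges over the libraries (446 to 736 and 262 to 769) overlapped.

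The most abundant complexins were cplx4a at 543 TPM and cplx4c at 314 TPM, while cplx2l had 131. Among syntaxins the endosomal stx12 was highest at 118 TPM, then stx3a at 92.3, the Golgi and endosomal stx6 at 68.3 and the gene written STX3 at 52.5. Of the genes named for ribbon complexins, cplx4a and cplx4c thus had higher levels per length than cplx2l. The latter is named for a complexin of conventional synapses. The remaining ribbon complexin genes, cplx4b, cplx3a and cplx3b, had lower CPM than cplx2l in every library. This grouping was made after the values were seen. Of the vesicle membrane proteins, sv2bb and sv2ba had 90.6 and 80.3 TPM against 4.53 for sv2a, and sypb had 80.7 against 16.4 for sypa. The synapsins were low, with syn2a at 35.9 TPM, syn2b at 6.26 and syn1 at 5.66. Rab3 was represented mainly by rab3aa, at 322 TPM (287 to 361), and by rab3ab at 56.1 TPM. In CPM, the unit of the comparisons below and scaled otherwise than TPM, rab3aa ran from 404 to 710 over the libraries.

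**Figure D1:**
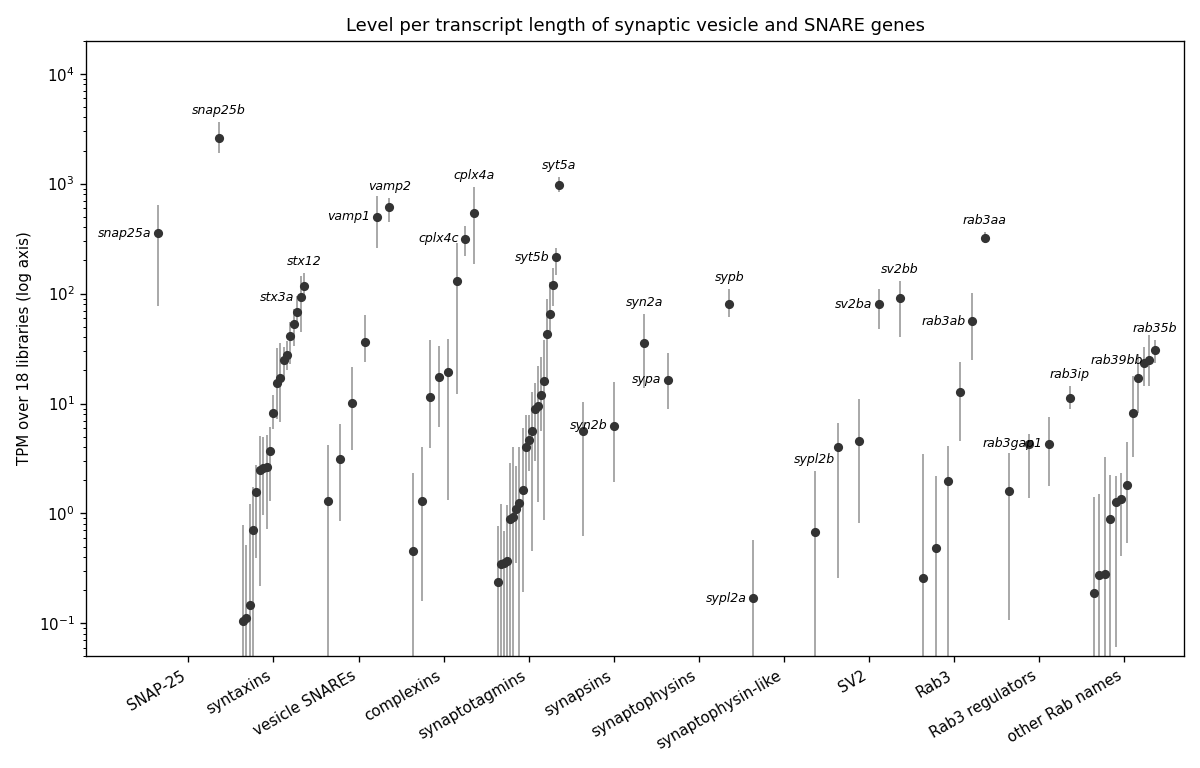
Mean level of the 89 genes with at least 0.1 TPM, grouped by role; points are means over 18 libraries on a logarithmic TPM axis and lines run from the lowest to the highest library, cut at 0.05 TPM. The 2 most abundant genes of each role are named, and snap25b is the highest at 2612 TPM.

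The question put to these genes was whether their transcripts differed between ganglion cells with a cut axon and uninjured ones. With edgeR's quasi-likelihood test and Benjamini-Hochberg adjustment over all 17527 genes tested, 0 of 86 passed an adjusted p of 0.05 at 6, 12 or 24 hpi, and the same held for 0% of all genes at each time point. At an unadjusted p under 0.05, 7 were lower and 2 higher in injured libraries at 6 hpi, beside 4.07% lower and 5.2% higher among all genes. At 12 hpi there were 0 in either direction, beside 1.74% lower and 1.9% higher. At 24 hpi, 20 of 86 (23.3%) were lower and 2 were higher, where all genes gave 5.09% lower and 3.39% higher. DESeq2, the other tool run, called 0 of these genes at 6 hpi (beside 0.287% of all genes higher and 0.103% lower), 0 at 12 hpi (beside 0.0287% higher and 0.0115% lower) and 4 at 24 hpi.

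Their median log2 fold change, injured over control, was -0.22 at 6 hpi, -0.07 at 12 hpi and -0.23 at 24 hpi, beside -0.02, 0.00 and 0.02 over all genes tested. Values below 0 were found for 56 of 86 genes at 6 hpi (65.1%, beside 51.8% of all genes), 52 at 12 hpi (60.5%, beside 49.7%) and 54 at 24 hpi (62.8%, beside 48.3%). At 24 hpi all 3 injured libraries lay below all 3 control libraries for 19 of 86 genes (22.1%, beside 8.4% of all genes) and above them for 9 (beside 7.85%). At 6 hpi these counts were 9 below (beside 7.13%) and 4 above (beside 6.13%), and at 12 hpi 5 below (beside 4.26%) and 1 above (beside 4.14%). No gene of the set lay apart in the same direction at all 3 time points, beside 0.0799% of all genes below and 0.0399% above. All 97 genes together took 0.828% ± 0.00819 of counts in injured and 1.02% ± 0.0453 in control libraries at 24 hpi (SD, n = 3 each; exact two-sided permutation p = 0.1, the smallest that 3 against 3 libraries allow). Of the summed CPM by role at 24 hpi, that of the SNAP-25 genes, which include the abundant snap25b, differed most in absolute CPM. It was 2629 ± 149 in injured and 3638 ± 367 in control libraries (SD, n = 3 each). In proportion the synapsins differed more, at 39.0 ± 12.5 CPM in injured and 89.5 ± 24.0 CPM in control libraries. The mean sums of Rab3 genes, Rab3 regulators, synaptotagmins and syntaxins were higher in injured libraries, and those of the other roles lower. Several of these differences were smaller than the SD. Syntaxins had 685 ± 18.5 CPM in injured and 679 ± 7.67 in control libraries, and vesicle SNAREs 1053 ± 119 and 1077 ± 30.1. At 6 hpi the shares of all 97 genes were 0.968% ± 0.109 in injured and 1.16% ± 0.125 in control libraries (exact p = 0.2). At 12 hpi they were 1.01% ± 0.141 and 1.08% ± 0.0394 in injured and control libraries (exact p = 0.6).

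The 20 genes lower at 24 hpi by this unadjusted rule included snap25a and snap25b, cplx2l, 8 synaptotagmins (syt1a, syt2a, syt6a, syt7b, syt9b, syt11a, syt12 and syt13), syn2a and syn2b, sypa, sv2a, rab3ab, rab3b and rab3c, and rab39bb. Their log2 fold changes ran from -2.48 to -0.28 with a median of -1.38. Of the 20, rab3b, syt6a and syt7b had low counts, with a mean log2 CPM under 3. The same 20 had a median of -0.49 at 6 hpi, where 20 of 20 were negative, and of -0.07 at 12 hpi, where 14 were negative; the members of this list were picked by their 24 hpi values. With the score of ganglion cell markers described above in the model, 10 of the 17 with a mean log2 CPM of at least 3 turned positive at 6 hpi, with a median of 0.13. The 2 higher genes were vamp4 and stx12. In the file headers 4 of the S numbers occur on 2 libraries, which was read as 2 runs of numbers over 4 and 14 libraries; what the S numbers mark is not given in the sources used here. At 6 hpi all injured libraries were in the run of 14, and control replicates 2 and 3 in the run of 4. Run and injury thus cannot be fully told apart in any 6 hpi difference given here. At 24 hpi injured replicate 3 and control replicate 1 were in the run of 4. Where these libraries differ from others of their group, run and library cannot be told apart. All 17 genes were lower among the 2 injured and 2 control libraries of the run of 14 at 24 hpi. These libraries are among those by which the genes were picked, so the signs are no independent check. In that subset the difference of mean log2 CPM was -2.09 for snap25a, -1.30 for rab3ab, -2.54 for sv2a, -2.52 for syt9b and 0.42 for vamp4, beside -1.62, -1.36, -2.17, -2.43 and 0.79 over all libraries of 24 hpi.

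**Figure D2:**
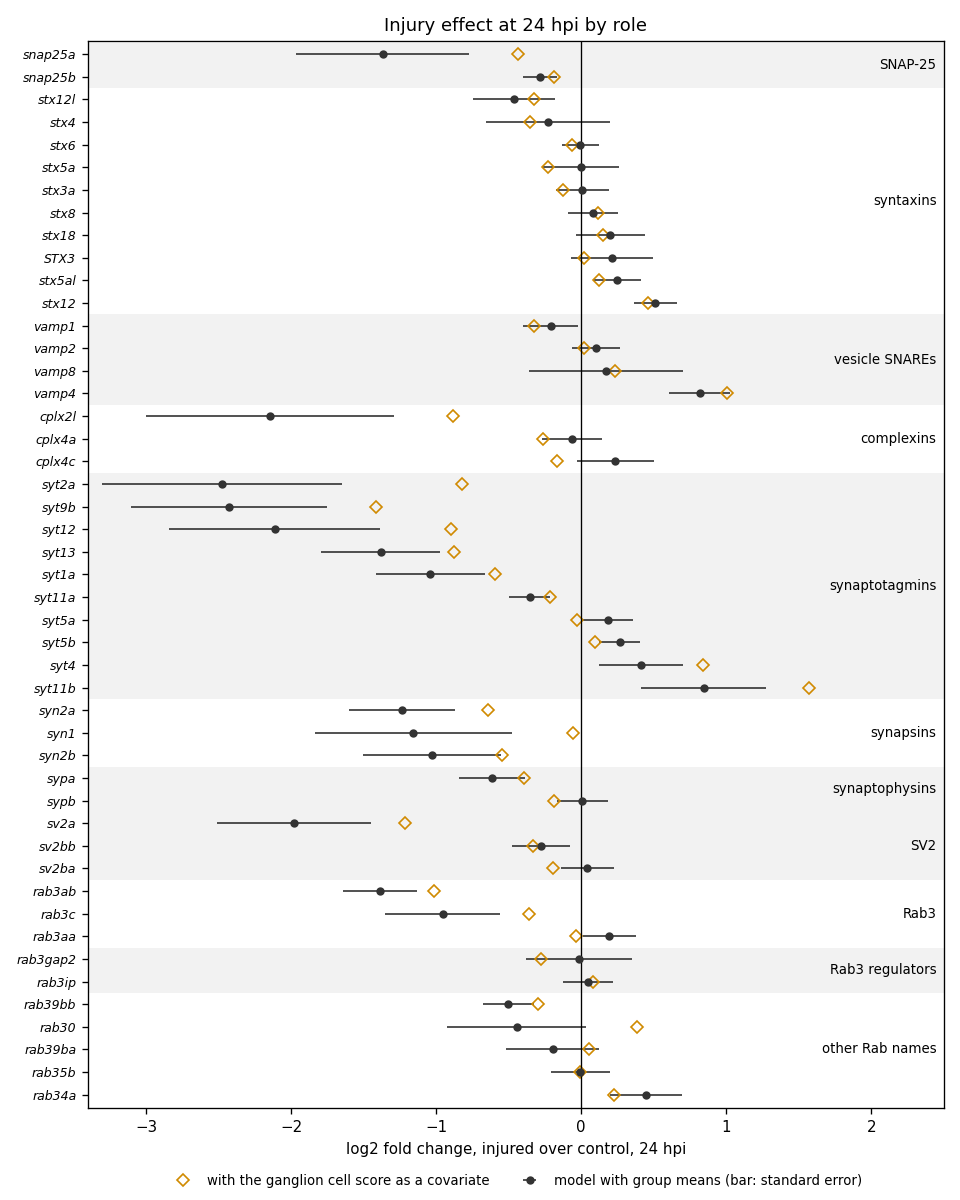
Log2 fold change (injured over control) at 24 hpi of 47 of the 48 genes with a mean log2 CPM of at least 3, by role; black points with bars are the estimate and its standard error from the model with group means, and open diamonds the estimate with the ganglion cell score as a covariate. Of the 47 genes drawn 28 lie below 0 and 19 above it, between -2.48 and 0.85.

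The SNAP-25 genes differed in how much they spread. In injured libraries at 24 hpi snap25a (GRCz11, chromosome 20, 34913069 to 34956230, plus strand) had 238, 136 and 586 CPM, against 945, 698 and 838 CPM in control libraries. All injured libraries lay below the controls, and injured replicate 3 lay far above its other two. The log2 fold change was -1.37 ± 0.59 (edgeR adjusted p = 0.546) and reached -2.14 without that replicate. CPM of snap25b (chromosome 17, 12297984 to 12389259, minus strand) was 2344, 2373 and 2209.8 in injured and 3031, 2549 and 2851 in control libraries at this time. The groups did not overlap but lay near each other, at a log2 fold change of -0.28 ± 0.12 (edgeR adjusted p = 0.528). At 12 hpi snap25a had 158, 774 and 679 CPM in injured and 595, 192 and 653 CPM in control libraries, so each group held 1 library far below its other two.

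Of the 18 syntaxins tested, 9 had a positive and 9 a negative log2 fold change at 24 hpi, with a median of 0.00. At 24 hpi stx3a had 138, 119 and 76.4 CPM in injured and 103, 121 and 108 CPM in control libraries, with overlap and a log2 fold change of 0.01 ± 0.18 (-0.18 without injured replicate 1, 0.22 without injured replicate 3). STX3 likewise had 0.21 ± 0.28. For stx12, which serves endosomes, the injured libraries had 148, 125 and 178 CPM and the control libraries 102, 96.6 and 118 CPM, each injured library above each control (log2 fold change 0.51 ± 0.15, edgeR adjusted p = 0.282). The Golgi syntaxin gene stx5al had 44.2, 34.5 and 37.7 CPM in injured and 34.0, 24.6 and 30.1 CPM in control libraries at 6 hpi, also without overlap, at 0.39 ± 0.17 (adjusted p = 0.526), and stx6 stood at -0.01 ± 0.13 at 24 hpi.

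The vesicle SNAREs vamp1 and vamp2, which pair with syntaxin and SNAP-25, had overlapping groups at 24 hpi. Injured libraries had 342, 365 and 377 CPM of vamp2 and control libraries 349, 345 and 316 CPM, a log2 fold change of 0.10 ± 0.16; that of vamp1 was -0.21 ± 0.19, and 0.01 without injured replicate 3. In contrast vamp4 (chromosome 20, 14968031 to 15006337, plus strand), whose product works between endosomes and the trans-Golgi network in mammals, had 77.1, 72.4 and 119 CPM in injured and 40.8, 54.3 and 57.2 CPM in control libraries. Every injured library was above every control at 24 hpi, replicate 3 most of all. The log2 fold change was 0.82 ± 0.21 (edgeR unadjusted p = 0.00112, adjusted p = 0.232), against -0.04 ± 0.21 at 6 hpi and 0.34 ± 0.21 at 12 hpi.

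Complexins, the small proteins that bind the SNARE bundle, had 7 of 8 log2 fold changes below 0 at 24 hpi (87.5%, beside 48.3% of all genes). The median was -0.89, but of the 8 only cplx2l, cplx4a and cplx4c had a mean log2 CPM of at least 3. The summed level of the complexins at 24 hpi was 1339 ± 145 CPM in injured and 1405 ± 91.5 CPM in control libraries (SD, n = 3 each). For cplx2l CPM was 30.8, 16.8 and 96.3 in injured and 231, 175 and 231 in control libraries at 24 hpi. All injured libraries were lower, at a log2 fold change of -2.14 ± 0.85 (edgeR adjusted p = 0.509). At 12 hpi its values were 35.1, 256 and 215 CPM in injured and 160.1, 18.4 and 243 CPM in control libraries, and each group held 1 library far below its other two. The abundant cplx4a had 540.3, 481 and 296 CPM in injured and 438, 391 and 548 CPM in control libraries at 24 hpi, with overlap and a log2 fold change of -0.06 ± 0.21 (-0.24 without injured replicate 1, 0.16 without injured replicate 3). For cplx4c, whose position overlaps other genes in the tables, it was 0.23 ± 0.27 at 24 hpi (-0.16 ± 0.21 with the ganglion cell score in the model) and 0.57 ± 0.27 at 6 hpi (edgeR adjusted p = 0.538).

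**Figure D3:**
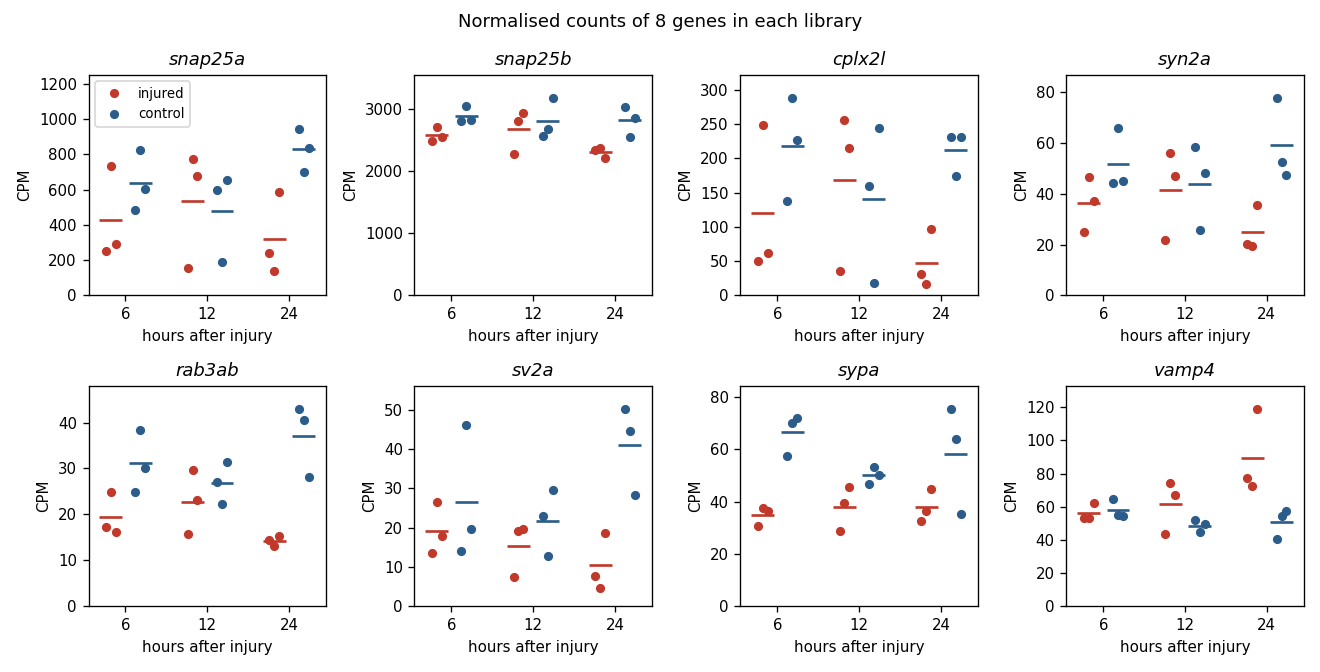
CPM of 8 genes in each library (points) with group means (lines) at 6, 12 and 24 hours after injury, injured in red on the left and control in blue on the right of each pair. At 24 hpi the injured libraries lie below the controls for snap25a, snap25b, cplx2l, syn2a, rab3ab and sv2a and above them for vamp4, while for sypa they overlap.

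Among 21 synaptotagmins tested, 14 had a negative (66.7%, beside 48.3% of all genes) and 7 a positive log2 fold change at 24 hpi. Their median was -0.58. The summed level of the synaptotagmins at 24 hpi was 1864 ± 27.0 CPM in injured and 1830 ± 74.3 CPM in control libraries (SD, n = 3 each). The gene syt9b (chromosome 25, 15841670 to 15905903, plus strand), a calcium-binding synaptotagmin, had 5.53, 3.83 and 5.52 CPM in injured and 26.3, 29.7 and 24.2 CPM in control libraries. The groups lay far apart at this time point, at a log2 fold change of -2.43 ± 0.68 (edgeR unadjusted p = 0.00226, adjusted p = 0.266). At 6 hpi it had 7.43, 14.9 and 7.06 CPM in injured and 3.14, 15.1 and 15.7 CPM in control libraries, and at 12 hpi 4.19, 14.0 and 14.8 CPM and 12.0, 1.63 and 15.0 CPM in injured and control libraries. At both of these times the groups overlapped, and the 24 hpi controls were higher than every earlier control.

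The fast calcium sensor genes syt2a and syt1a were lower in every injured library at 24 hpi, as was syt12. For syt2a the injured libraries had 5.58, 4.39 and 7.71 CPM and the control libraries 42.8, 31.5 and 24.2 CPM (log2 fold change -2.48 ± 0.83, edgeR adjusted p = 0.399). The log2 fold change of syt1a was -1.04 ± 0.37 (adjusted p = 0.447), and -0.69 without control replicate 1. That of syt12 was -2.11 ± 0.73 (adjusted p = 0.415), and that of syt13, which overlaps other genes in position, -1.38 ± 0.41 (adjusted p = 0.286). The more abundant syt5a had 1101, 1161 and 1052 CPM in injured and 888, 1040.4 and 985 CPM in control libraries, and syt5b 279, 282 and 250.4 and 192, 247 and 236 CPM in injured and control libraries. Neither pair of groups overlapped, yet the log2 fold changes were small at 0.19 ± 0.17 and 0.27 ± 0.14 (edgeR adjusted p = 0.853 and 0.633). With the ganglion cell score in the model they were -0.03 ± 0.16 for syt5a, of opposite sign, and 0.09 ± 0.13 for syt5b.

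The 3 synapsins had negative log2 fold changes at 24 hpi. At that time syn2a had 20.2, 19.4 and 35.7 CPM in injured and 77.6, 52.4 and 47.6 CPM in control libraries. The groups lay apart, and the log2 fold change was -1.24 ± 0.37 (edgeR adjusted p = 0.286). It was -1.03 ± 0.47 for syn2b (adjusted p = 0.573), which overlaps timp4 genes in position, and -1.16 ± 0.68 for syn1 (adjusted p = 0.685). With the ganglion cell score in the model the 24 hpi values were -0.65 ± 0.25 for syn2a, -0.54 ± 0.48 for syn2b and -0.06 ± 0.46 for syn1. Some of the negative values at 6 and 12 hpi turned sign with the score or without a single library. At 6 hpi syn2a had -0.51 ± 0.36 and 0.01 ± 0.24 with the score, and syn2b -0.24 ± 0.46, 0.26 ± 0.48 with the score and 0.27 without control replicate 2. At 12 hpi syn1 had -0.11 ± 0.67, 0.34 ± 0.43 with the score and 0.37 without control replicate 3, and syn2a -0.08 ± 0.36, 0.07 ± 0.22 with the score and 0.23 without injured replicate 1. The summed level of the synapsins was 39.0 ± 12.5 CPM in injured and 89.5 ± 24.0 CPM in control libraries at 24 hpi (SD, n = 3 each).

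Of the vesicle membrane proteins, sypa, a synaptophysin gene, stood out at 6 hpi, with 30.5, 37.7 and 36.4 CPM in injured and 57.7, 70.0 and 72.0 CPM in control libraries. Every injured library was below every control there, and also at 12 hpi. The log2 fold changes were -0.93 ± 0.23 at 6 hpi (edgeR unadjusted p = 0.000862, adjusted p = 0.376), -0.40 ± 0.23 at 12 hpi and -0.62 ± 0.23 at 24 hpi, where the groups overlapped. The last 2 moved by more than 1.5 times without a single library: the 12 hpi value was -0.24 without injured replicate 1 and the 24 hpi value -0.38 without control replicate 1. At 6 hpi the rod and cone score was 9.06 ± 0.118 in injured and 8.12 ± 0.0531 in control libraries (SD, n = 3 each), and with this score in the model the 6 hpi value of sypa was -0.40 ± 0.26. The mean of sypa over the 3 time points was -0.65 ± 0.13 (adjusted p = 0.101). The more abundant sypb had -0.20 ± 0.18, 0.00 ± 0.18 and 0.01 ± 0.18 at 6, 12 and 24 hpi.

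SV2 proteins are vesicle glycoproteins, and sv2a was the only SV2 gene of the 4 tested with an unadjusted p under 0.05 at 24 hpi. It had 7.77, 4.69 and 18.7 CPM in injured and 50.1, 44.6 and 28.3 CPM in control libraries (chromosome 16, 46111849 to 46202705, plus strand). The groups lay apart, although injured replicate 3 was well above its other two, and the log2 fold change was -1.98 ± 0.53 (edgeR adjusted p = 0.266). The abundant sv2ba and sv2bb had 0.04 ± 0.18 and -0.28 ± 0.20 at 24 hpi; in both, injured replicate 3 was the lowest, with 139 and 163 CPM.

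Among Rab3 GTPases, rab3ab (chromosome 11, 6819050 to 6850593, plus strand) had the smallest unadjusted p of the 86 tested genes at 24 hpi. Its CPM at 24 hpi was 14.3, 13.0 and 15.2 in injured and 42.9, 40.5 and 28.1 in control libraries. The 3 injured libraries lay close together, at less than the lowest control. The log2 fold change was -1.39 ± 0.25 (edgeR unadjusted p = 4.34e-05, adjusted p = 0.105). At 6 hpi its CPM was 17.3, 24.8 and 16.2 in injured and 24.9, 38.4 and 30.1 in control libraries, narrowly without overlap, for -0.68 ± 0.25 (adjusted p = 0.477), and at 12 hpi the value was -0.24 ± 0.25. The 6 hpi value was -0.38 ± 0.20 with the ganglion cell score in the model. The paralog rab3aa, more abundant per length, had 634, 668 and 636 CPM in injured and 578, 535 and 584 CPM in control libraries at 24 hpi, with a log2 fold change of 0.19 ± 0.18 (adjusted p = 0.857), and -0.03 ± 0.16 with that score. Of the lower-count Rab3 genes, rab3c had -0.95 ± 0.40 (adjusted p = 0.523) and rab3b -2.44 ± 0.96 (adjusted p = 0.506).

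None of the 4 Rab3 regulators had an unadjusted p under 0.05 at any time point. Of the 10 other Rab genes tested, rab39bb, of a family linked to Golgi and endosomal traffic, had 28.4, 24.0 and 27.1 CPM in injured and 43.5, 32.5 and 36.7 CPM in control libraries at 24 hpi. The groups lay apart at 24 hpi and at 6 hpi, with log2 fold changes of -0.50 ± 0.18 and -0.51 ± 0.18 (edgeR adjusted p = 0.433 and 0.457).

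Averaged over the 3 time points, 0 of 86 genes passed an adjusted p of 0.05 with edgeR, beside 0% of all genes, while 17 (19.8%) were lower and 3 higher at an unadjusted p under 0.05, beside 6.16% and 6.4% of all genes. The smallest adjusted p values were 0.0842 for rab3ab, at -0.77 ± 0.14, 0.101 for sypa and 0.167 for rab39bb, at -0.42 ± 0.10. DESeq2 called 5 of 62 genes with an adjusted p over the 3 time points, all lower: rab3ab, sypa, sv2a, rab39bb and syt11a (beside 0.982% lower among all genes). A fit to only the 24 hpi libraries in edgeR called rab3ab, syt2a and syt9b lower (beside 0.291% of all genes). The 4 DESeq2 calls at 24 hpi, of 81 genes with an adjusted p, were rab3ab (adjusted p = 0.000441), sv2a (0.0192) and syt9b (0.0209), lower in injured libraries, and vamp4 (0.0323), higher (beside 0.9% lower and 0.249% higher). No gene passed with edgeR for an injury effect that differed between time points, beside 0% of all genes; 6 of 86 had an unadjusted p under 0.05, beside 5%. Of these the ones with a mean log2 CPM of at least 3 were rab3ab, syt9b, stx12, stx5al and vamp4, and DESeq2 called 0 of 85 (beside 0.0745% of all genes).

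Among controls alone, 1 of 86 genes changed over time with edgeR, beside 1.54% of all genes. It was cplx4a (chromosome 21, 10739846 to 10749542, plus strand), a complexin gene, whose CPM in control libraries was 1159.5, 918 and 752 when taken at 6 hpi, 887, 1127 and 823 when taken at 12 hpi and 438, 391 and 548 when taken at 24 hpi. All 3 controls at 24 hpi were below all earlier ones (edgeR adjusted p = 0.0167 over the time points). The log2 difference of 24 from 6 hpi was -1.04 ± 0.21 (adjusted p = 0.0131). Injured libraries had 903, 883 and 1019 CPM, 904, 790.2 and 784 CPM and 540.3, 481 and 296 CPM at 6, 12 and 24 hpi, again lower in each library of 24 hpi than in all earlier ones. Rod and cone markers also moved in the controls, where 5 of 39 were called and their score was 8.12 ± 0.0531, 8.97 ± 0.264 and 8.41 ± 0.567 at 6, 12 and 24 hpi. Of 16 bipolar cell markers 4 were called in the controls, and no bipolar cell score was put in a model. With the rod and cone score in the model cplx4a kept its call (edgeR adjusted p = 0.0144). Its call was lost without control replicate 1 at 24 hpi (adjusted p = 0.113) or without replicate 2 (0.148). DESeq2 called cplx4a and stx5al (beside 5.56% of all genes).

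The ganglion cell score was 4.54 ± 0.537 in injured and 5.70 ± 0.295 in control libraries at 24 hpi (SD, n = 3 each), and the groups did not overlap. It was 4.54 ± 0.960 and 5.51 ± 0.419 in injured and control libraries at 6 hpi, and 4.87 ± 1.34 and 5.16 ± 0.764 in injured and control libraries at 12 hpi. Of 21 ganglion cell markers tested, 10 were lower and 1 higher at an unadjusted p under 0.05 at 24 hpi, beside 5.09% and 3.39% of all genes. With this score as a covariate in the model, the 20 genes lower at 24 hpi had a median log2 fold change of -0.73, still negative in 20 of 20. With the rod and cone score it was -1.37, but that score hardly differed at 24 hpi, at 8.43 ± 0.421 in injured and 8.41 ± 0.567 in control libraries. The share of counts in rod and cone markers did differ there. It was 26.4% ± 0.674 in injured and 23.5% ± 0.0672 in control libraries, without overlap (SD, n = 3 each; exact two-sided permutation p = 0.1). Its part in the 24 hpi values was not tested.

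With the ganglion cell score in the model the value of snap25a at 24 hpi became -0.44 ± 0.30, that of cplx2l -0.88 ± 0.47 and that of syt2a -0.82 ± 0.46. It was -1.02 ± 0.21 for rab3ab (edgeR adjusted p = 0.0701), -1.22 ± 0.36 for sv2a (adjusted p = 0.309) and -1.41 ± 0.54 for syt9b (adjusted p = 0.547). Above 0, vamp4 had 1.00 ± 0.21 (adjusted p = 0.0701). A single gene passed with the covariate: syt11b, a synaptotagmin without calcium binding in mammals, at 1.57 ± 0.21 (edgeR adjusted p = 0.00580), beside 0.154% of all genes called higher in that fit. Over the 3 time points it had 0.68 ± 0.13 with the covariate (edgeR adjusted p = 0.0480, beside 0.108% of all genes higher). It had 51.1, 35.6 and 87.4 CPM in injured and 25.6, 39.6 and 31.6 CPM in control libraries at 24 hpi, which overlapped, and 0.85 ± 0.43 without the covariate (adjusted p = 0.612; 0.43 without injured replicate 3). How far the marker level enters the injury differences was not tested beyond this covariate.

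Among the 9 control libraries, the log2 CPM of 48 genes was correlated with the score, with exact permutation p-values adjusted over the 48. By this 2 passed with Pearson's r and 0 with Spearman's rho. For sv2a, which was among the 2, r was 0.835 (exact p = 0.000816, adjusted 0.0392) and rho 0.800 (exact p = 0.0138, adjusted 0.221), with r of 0.815 without the 2 libraries farthest in score and 0.852 within the 6 controls of the run of 14 libraries. Neither SNAP-25 gene passed, and the difference between their correlations was not tested: r was 0.884 for snap25a (exact permutation p = 0.0103, adjusted 0.0706), with rho 0.567 (exact p = 0.121, adjusted 0.464) and r 0.606 without the 2 farthest libraries, and r was 0.179 for snap25b (exact permutation p = 0.674, adjusted 0.789), with rho -0.0167 (exact p = 0.982, adjusted 1).

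**Figure D4:**
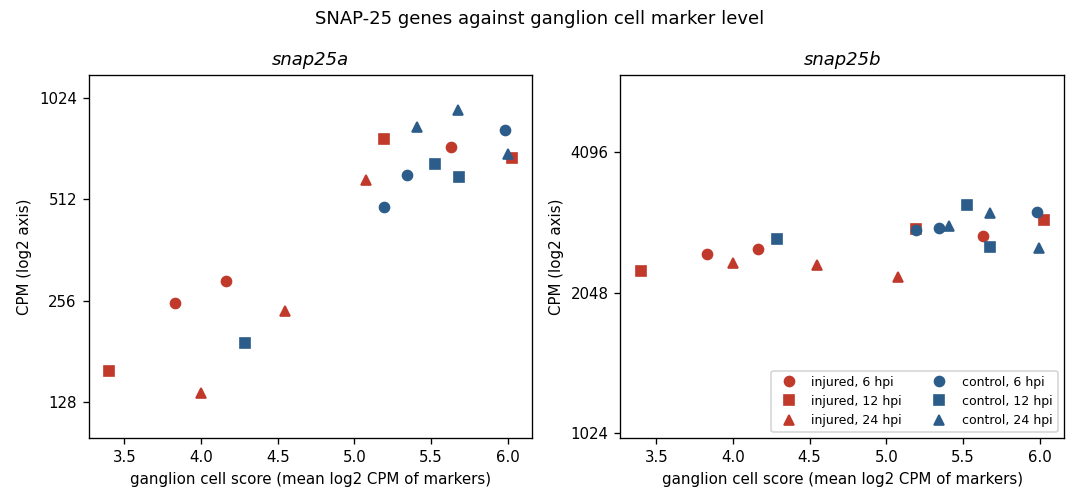
CPM (log2 axis) of snap25a and snap25b against the ganglion cell score in each of the 18 libraries; colour marks injured (red) and control (blue), and the symbol marks the time point. Libraries with low scores have low snap25a, and the only control among them is 12 hpi replicate 2 (score 4.29). The snap25b values span a narrow band at all scores.

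In the authors' deposited table, whose model is not given in the sources used here, 13 of 94 genes of the set were called lower and 1 higher at 24 hpi, beside 1.94% and 0.466% of all its genes. The 13 in the authors' deposited table included rab3ab, rab3b, snap25a, sv2a, cplx2l, syn1, syn2a, syt1a, syt2a, syt9b, syt12 and syt13, and the 1 higher was vamp4. At 6 hpi the authors' deposited table called 1 gene lower, sypa (log2 fold change -0.92, adjusted p = 0.0215, beside 0.212% of its genes). At 12 hpi it called 0 of the set, beside only 0.0663% higher and 0.0426% lower among all its genes.

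Other genes of the same pathway were counted from lists. Of 40 tested genes that dock or prime vesicles, 29 were below (72.5%, beside 48.3% of all genes) and 11 above 0 at 24 hpi. At an unadjusted p under 0.05, 8 were lower (20%, beside 5.09%) and 0 higher (beside 3.39%), with a median of -0.40 and 0 called. Among them stxbp1a, the Munc18 partner of syntaxin, had 81.4 ± 28.7 CPM in injured and 182 ± 35.9 CPM in control libraries (SD, n = 3 each), a log2 fold change of -1.16 ± 0.54 (edgeR adjusted p = 0.572). The active zone scaffold rims2a had -1.39 ± 0.41 (adjusted p = 0.285) and cadpsb, a priming factor, -1.35 ± 0.38 (adjusted p = 0.272). Of 27 tested genes for other vesicle membrane proteins and transmitter loading, 4 were lower (14.8%) and 1 higher (3.7%) at that p, with a median of -0.09. The vesicular glutamate transporter gene slc17a6b had 15.1 ± 8.25 CPM in injured and 58.6 ± 8.96 CPM in control libraries, at -1.96 ± 0.48 (adjusted p = 0.222). For 35 endocytosis and clathrin genes 2 were lower (5.71%, near the 5.09% of all genes) and 0 higher, with a median of -0.06. A last list mixed SNAREs outside the 97 genes with stxbp and synaptotagmin-like sytl genes, which are not SNAREs. Of its 25 tested genes 0 were lower or higher at that p, with a median of 0.08.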

How the data were processed

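RNA of 1000 sorted isl2b:GFP cells per library was amplified with a SMART-Seq HT kit and made into libraries with Nextera XT, per the labels' protocols. The authors deposited, per the file headers, a count of reads per gene and library without normalization, which was the input of every test here. Relative exon lengths were taken from the ratio of count to the deposited RPKM, which the headers name as length-scaled, and gave the TPM used here. The authors' log2 fold changes and adjusted p-values, deposited in the same tables, were used only where named. The genome build was GRCz11, per the submitters' processing notes; aligner, annotation release and strand use are not given in the sources used here, so values of overlapping genes (11 of the 97), antisense genes and near-identical paralogs are uncertain. Other deposited columns were left aside, and 0 count columns lacked a sample. A header calls injured 6 hpi replicate 1 trimmed.

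Genes were tested in R 4.3.3 with edgeR 4.0.16 (TMM factors, filterByExpr with a minimum count of 10, quasi-likelihood F test) in a model of 6 group means over 18 libraries, giving 17527 genes tested and a biological coefficient of variation of 0.517. P-values were adjusted by Benjamini-Hochberg over all genes tested and called under 0.05. Standard errors are the absolute log2 fold change over the square root of F. CPM is edgeR's TMM-scaled cpm, and scores used log2 CPM with a prior count of 2. TPM carried no TMM factors, so its ranges over the libraries differ from those in CPM. Alternatives were DESeq2 1.42.0, its size factors, no filter, only the libraries compared, a replicate block, the run of S numbers, marker scores as covariates and each library left out; the test was checked on simulated data. Counts carry no molecular identifiers, so floors cover counting error only; libraries of a group differed by 27.7 to 124 in chi-square per gene over 18 pairs, above counting noise. The 2 runs of S numbers were inferred from repeated S numbers in the file headers, and what they mark is not given. At 24 hpi each group had 1 library from the first run, which were injured replicate 3 and control replicate 1. At 6 hpi all injured libraries but only 1 control came from the second run, so no comparison within a run was made there.

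Genes and lists were chosen with earlier results of these data known. The genes named were the 2 most abundant per length of each role, up to 3 per comparison with a mean log2 CPM of at least 3 and the smallest unadjusted p, and every called gene (24 in all); cplx2l, STX3, syn1, rab3b, rab3c and the synaptotagmins syt1a, syt2a, syt11a, syt11b, syt12 and syt13 were added after their values were seen, as were the genes that only a list or a count spells out. STX3 was matched ignoring case. Sequences were not used here. A gene that counts in the totals is not reported here by name.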

Additional observations from a re-analysis of the deposited data

How the results depend on the processing

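The number of the 86 tested genes called by edgeR stayed at 0 for the injury effect at 6 hpi, at 12 hpi and for its difference between time points under every alternative run. At 24 hpi, against 0, DESeq2 called 4, a fit to only the libraries of that time point 3 (rab3ab, syt2a and syt9b), the ganglion cell score as a covariate 1 (syt11b), and leaving out single libraries gave 0 to 1, the 1 being rab3ab without injured 12 hpi replicate 1 (adjusted p = 0.0448). For the mean over the time points, against 0, DESeq2 called 5, the ganglion cell score 1 (syt11b), and leaving out single libraries gave 0 to 1 (rab3ab without injured 6 hpi replicate 2, sypa without control 24 hpi replicate 3). For controls over time, against 1, DESeq2 called 2 and leaving out single libraries gave 0 to 1. The cause of these moves was not tested. Of 31 log2 fold changes of single genes followed through every alternative, each in a comparison where it had been picked for a small p, 0 turned sign. Other values did: of the 48 genes with a mean log2 CPM of at least 3, the ganglion cell score turned 17 at 6 hpi, 8 at 12 hpi and 8 at 24 hpi (cplx4c, rab30, rab39ba, rab3aa, stx3a, sv2ba, sypb and syt5a), and the rod and cone score 7, 0 and 1. Leaving out a single library turned 16, 25 and 13 of the 48 at 6, 12 and 24 hpi. Same-numbered injured and control libraries correlated at -0.0679 to 0.130 in their deviations from group means. At 6 hpi the same-numbered values (0.0965, 0.130 and 0.0682) all exceeded those of other-numbered libraries (at most 0.0178). At 12 and 24 hpi other-numbered libraries reached 0.156 and 0.0906, above the same-numbered values. The labels do not say what a number shares, so pairing stays possible and the fit without it was kept. With a replicate block 0 genes were called at 6, 12 and 24 hpi. The 20 genes lower at 24 hpi kept negative values in 20 of 20 under DESeq2, its size factors, no filter, the block, the run of S numbers as a covariate and both scores, with medians from -1.43 to -0.73. They were picked by their 24 hpi values in the same libraries, so these signs are no independent check. A p that misses the threshold does not show that groups are alike.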
